A study of Mus musculus with 16 samples.

Results

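The erythroid genes of neonatal liver are 36 genes that developing red blood cells use: transcription factors, the erythropoietin receptor, enzymes of haem synthesis, the membrane skeleton, blood group proteins and a few others. A gene was taken from the probe sets annotated with its symbol alone, and where there were several, that of highest mean signal stood for it. This gave 34 measured genes of 18820 in the whole table, each with 1 probe set. Ahsp and Epb41 were not analysed here. The probe sets of the adult globins carry several symbols each and were not used.

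The samples were whole livers of 16 male mice aged 7 days, 4 of each genotype, and the RNA of each mouse was hybridised to an Affymetrix whole-transcript array of its own. All animals were on a mixed C57/BL6 - SV129Ola background. The controls, labelled WT, were littermates with loxP-flanked alleles and no Cre recombinase. TRAF2/Casp-8LPC-KO mice (here TRAF2/Casp8 KO) lacked Traf2 and Caspase-8, deleted by alfp-Cre in parenchymal cells of the liver. TRAF2/Casp-8LPC-KO/RIPK3-/- mice (RIPK3 triple KO) carried in addition a constitutive deletion of Ripk3, which concerns every cell of the body, blood cells included. TRAF2/Casp-8/IKKbetaLPC-KO mice (IKKβ triple KO) carried in addition the conditional deletion of Ikkβ. The alfp-Cre transgene is active in hepatocytes and bile duct cells, so the loxP-flanked genes were meant to stay intact in blood cells.

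Red blood cells form in the liver of the mouse before birth, and production moves to spleen and bone marrow around and after birth. Islands of erythroblasts around macrophages thus remain in the liver of a pup for some days. Erythropoietin keeps the precursors alive through its receptor, GATA1 and KLF1 switch on the erythroid genes, and the maturing cell makes haem, globin and a new membrane skeleton before it loses its nucleus. In whole liver, fewer erythroid cells and less RNA per erythroid cell cannot be told apart.

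The signal of Casp8, Ripk3 and Ikbkb was lower in the arrays labelled as deleted than in WT: the means were 8.69 to 8.95 against 9.87 for Casp8, 4.21 against 5.93 for Ripk3 and 7.19 against 7.64 for Ikbkb, on the log2 scale. The signal of Traf2 went against the label: it was 6.89 to 7.32 in the arrays labelled as deleted and 6.28 in WT. Where the Traf2 probes lie relative to the deleted part was not analysed here. Arrays of 1 genotype correlated at 0.981 to 0.991 over all probe sets. The mean of 14 hepatocyte genes lay between 12.14 and 12.53 on every array. The array names hold a letter and a number that were taken here, as an assumption, for a row and a column of a plate. The number is 5 for WT and IKKβ triple KO and 7 for both other genotypes. The letters are A to D for WT and RIPK3 triple KO and E to H for both other genotypes. If they are positions, number and letter cannot be told apart from genotype over all 4 groups. The array name of TRAF2/Casp8 KO replicate 4 holds another prefix than all other arrays. The part of this prefix in its signals was not tested.

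The promoters of Gata1, Klf1 and Alas2 are shown as those of both main regulators and of the first haem enzyme. Each is the stretch from 150 bases to 1 base before the start of the gene in RefSeq (GRCm38.p6), in the direction of transcription. Capitals mark the letters AGATAA or TGATAA, which GATA factors recognise, and CACACCC or CCCACCC, which KLF factors recognise, on either strand.
Gata1, chrX:7967911-7968060, minus strand: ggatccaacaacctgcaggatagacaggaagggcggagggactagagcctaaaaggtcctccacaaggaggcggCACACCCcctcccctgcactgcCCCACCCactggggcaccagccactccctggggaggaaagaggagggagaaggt
Klf1, chr8:84901832-84901981, plus strand: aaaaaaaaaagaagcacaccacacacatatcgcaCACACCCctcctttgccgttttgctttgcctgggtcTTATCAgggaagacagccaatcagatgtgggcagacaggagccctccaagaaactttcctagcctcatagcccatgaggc
Alas2, chrX:150547267-150547416, plus strand: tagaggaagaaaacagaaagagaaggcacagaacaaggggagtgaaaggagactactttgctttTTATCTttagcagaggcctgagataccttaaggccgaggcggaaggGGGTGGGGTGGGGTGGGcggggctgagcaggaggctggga

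Gata1 held 2 KLF matches and 0 GATA matches in this stretch. Klf1 held 1 of each, and Alas2 held 1 GATA match and 3 KLF matches that share bases. In windows of 300 bases around the start, 15 of the 26 erythroid genes with a window (57.7%) held a GATA match. Among all 27025 genes of the RefSeq table the count was 5664 (21%). A KLF match stood in 11 of the 26 (42.3%) and in 7052 of all genes (26.1%). Both kinds stood in 6 of the 26 (23.1%), among them Alas2 and Klf1, and in 1041 of all genes (3.85%). A match describes the letters and is no evidence of binding.

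The erythroid genes differed more between animals of 1 genotype than most genes of the liver did. The median of their pooled SD within a genotype was 0.63 on the log2 scale, against 0.17 for all 18820 genes. Of the 34 measured genes, 28 were among the 1000 genes of largest SD, which is 5.31% of the table, and 16 were among the largest 100, which is 0.531%. Rhag ranked 7 of all genes with an SD of 1.12 and Kel ranked 9 with 1.06, and Epb42, Slc4a1 and Ank1 followed at 12, 13 and 14. Rhag and Kel are blood group proteins of the red cell surface, and the other 3 form the link between its membrane and its skeleton.

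**Figure D1:**
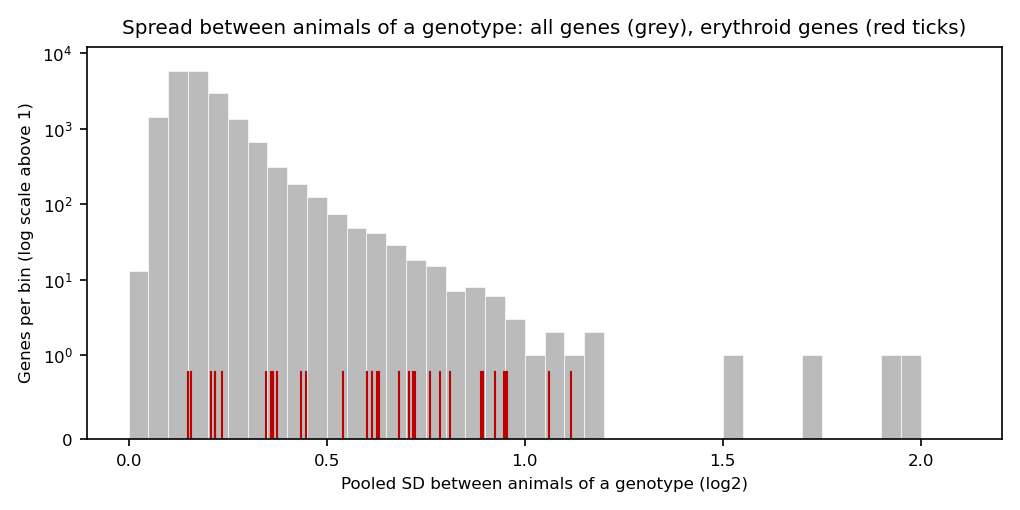
The horizontal axis is the pooled SD between animals of a genotype on the log2 scale (n = 4 for each of 4 genotypes) and the vertical axis is the number of genes per bin, on a log scale above 1. Grey bars are all 18820 genes and red ticks the 34 erythroid genes, which run from 0.15 (Aqp1) to 1.12 (Rhag) and lie mostly to the right of the bulk of genes.

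This spread was shared. The first principal component held 93.2% of the variance of the 34 genes after each genotype's mean was removed. The genes were not scaled, so those of large SD weigh most in this share and those of small SD hardly count. With the genotype means left in, the first component over the 16 arrays held 93.4%, and all 34 genes loaded on that component with 1 sign. In WT, replicate 2 had the highest signal for 31 of the 34 genes. In TRAF2/Casp8 KO this was replicate 4, for 28 genes. In RIPK3 triple KO it was replicate 4, for 31 genes, and in IKKβ triple KO replicate 4, for 27. Replicate 2 of IKKβ triple KO had the lowest signal of its genotype for 32 genes.

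The mean signal over the 34 genes was 6.67, 7.43, 6.65 and 6.64 in WT replicates 1 to 4. It was 5.99, 6.03, 6.64 and 7.18 in TRAF2/Casp8 KO, 5.62, 5.92, 5.83 and 7.09 in RIPK3 triple KO and 6.56, 6.17, 7.29 and 7.51 in IKKβ triple KO. The groups overlapped: the highest RIPK3 triple KO animal lay above 3 of the 4 WT animals, and the other 3 lay below every WT animal. As group means these are 6.85 ± 0.39 in WT, 6.46 ± 0.57 in TRAF2/Casp8 KO, 6.12 ± 0.66 for RIPK3 triple KO and 6.88 ± 0.63 for IKKβ triple KO (SD, n = 4). Both genotypes with the number 5 in the array names had the higher means, and the part of this number in the order was not tested.

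**Figure D2:**
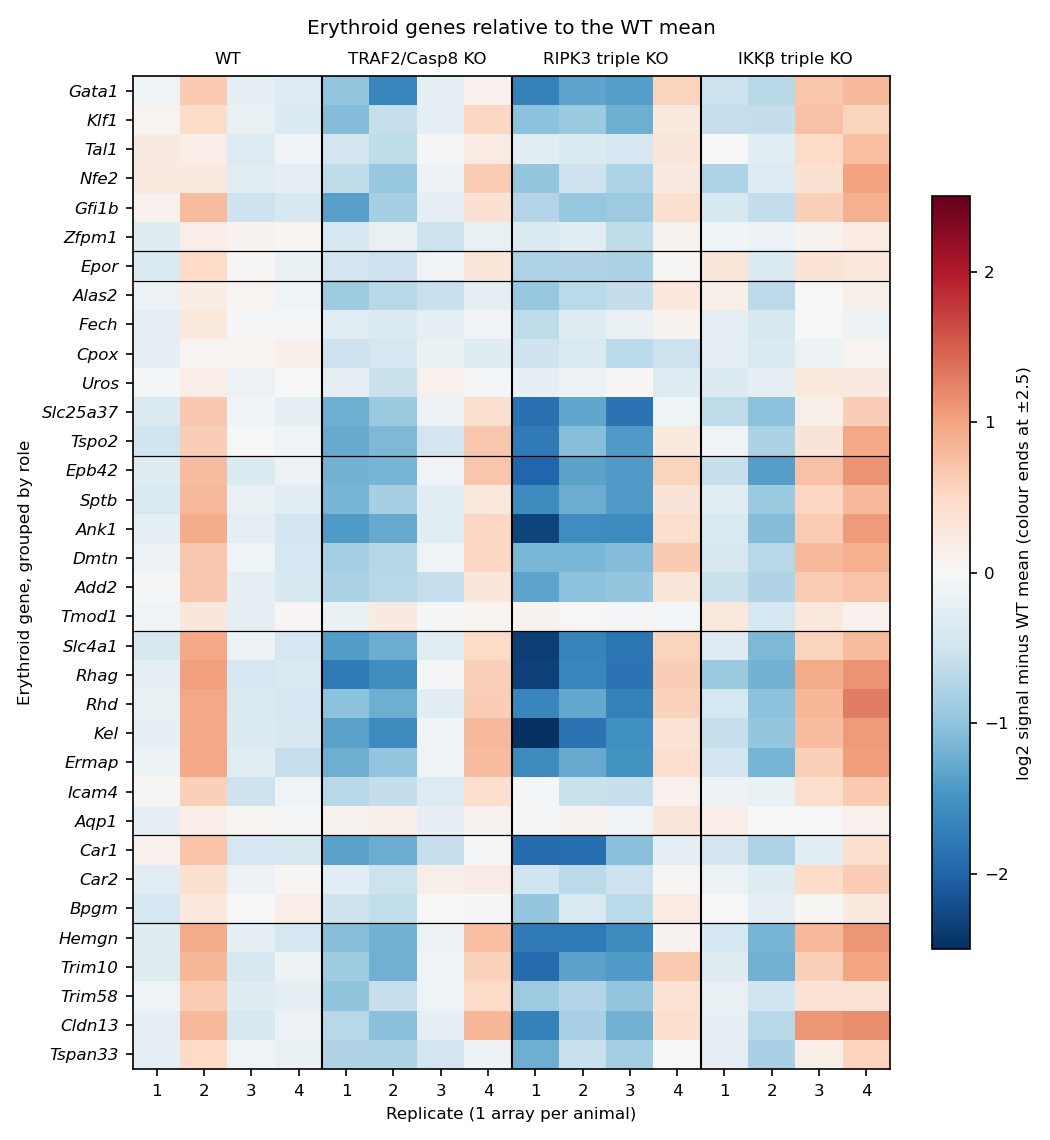
Rows are the 34 erythroid genes grouped by role, columns are the 16 arrays by genotype and replicate, and colour is the log2 signal minus the WT mean of the gene. Whole columns share a colour: WT replicate 2, RIPK3 triple KO replicate 4 and IKKβ triple KO replicates 3 and 4 are mostly red, and RIPK3 triple KO replicates 1 to 3 are mostly blue.

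Among the transcription factors, Gata1, the zinc finger factor without which erythroid cells do not mature, gave signals of 5.86, 6.62, 5.73 and 5.64 in WT, 4.97, 4.33, 5.71 and 6.07 in TRAF2/Casp8 KO, 4.27, 4.65, 4.58 and 6.52 in RIPK3 triple KO, and 5.43, 5.26, 6.65 and 6.77 in IKKβ triple KO. Replicate 4 of RIPK3 triple KO lay above 3 of the 4 WT animals, and the other 3 of its genotype lay below all WT animals. The means were 5.96 ± 0.45, 5.27 ± 0.78, 5.0 ± 1.02 and 6.03 ± 0.79 (SD, n = 4). Klf1, the factor that binds the CACCC elements of globin and other erythroid promoters, gave 5.69, 6.07, 5.43 and 5.28 in WT, 4.54, 5.04, 5.39 and 6.14 in TRAF2/Casp8 KO, 4.59, 4.70, 4.39 and 5.86 in RIPK3 triple KO, and 5.04, 5.03, 6.34 and 6.17 in IKKβ triple KO. Replicate 4 of RIPK3 triple KO and replicates 3 and 4 of IKKβ triple KO were again the high animals of their genotypes, and the groups overlapped. For Klf1 the means were 5.62 ± 0.35, 5.28 ± 0.67, 4.88 ± 0.66 and 5.65 ± 0.71.

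The other factors of this group were Tal1, which binds DNA in a complex with GATA1, Nfe2, the erythroid subunit of the NF-E2 factor, Gfi1b, a repressor of progenitor genes, and Zfpm1, the cofactor of GATA1. Their pooled SD within a genotype was 0.36 for Tal1, 0.60 for Nfe2, 0.68 for Gfi1b and 0.22 for Zfpm1. Zfpm1 spread least. It gave 7.74, 8.21, 8.13 and 8.09 in WT, 7.61, 7.86, 7.52 and 7.85 in TRAF2/Casp8 KO, 7.70, 7.76, 7.41 and 8.14 in RIPK3 triple KO, and 7.97, 7.90, 8.14 and 8.26 in IKKβ triple KO. All 4 IKKβ triple KO animals lay above all 4 TRAF2/Casp8 KO animals for Zfpm1.

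Epor, the receptor through which erythropoietin acts, gave 5.31, 6.18, 5.71 and 5.52 in WT, 5.23, 5.16, 5.60 and 5.98 in TRAF2/Casp8 KO, 4.92, 4.92, 4.88 and 5.71 in RIPK3 triple KO, and 5.97, 5.31, 6.03 and 5.94 in IKKβ triple KO. The first 3 RIPK3 triple KO animals had nearly the same signal, below all WT animals, and replicate 4 stood apart from them. The means were 5.68 ± 0.37, 5.49 ± 0.38, 5.11 ± 0.40 and 5.81 ± 0.34 (SD, n = 4). WT and IKKβ triple KO, neighbours in this order, differed by 0.14 (95% interval -0.38 to 0.66).

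The haem and iron genes split by spread. Alas2, the rate-limiting first enzyme of haem synthesis in erythroid cells, gave 8.89, 9.22, 9.09 and 8.91 in WT, 8.13, 8.33, 8.48 and 8.80 in TRAF2/Casp8 KO, 8.08, 8.36, 8.42 and 9.29 in RIPK3 triple KO, and 9.18, 8.37, 9.02 and 9.17 in IKKβ triple KO. All 4 TRAF2/Casp8 KO animals lay below all 4 WT animals, and RIPK3 triple KO reached from the lowest to the highest signal of the 16. The means were 9.03 ± 0.16, 8.43 ± 0.28, 8.54 ± 0.53 and 8.93 ± 0.38. Slc25a37, the mitoferrin that carries iron into mitochondria, had a pooled SD of 0.71. It gave 7.99, 9.04, 8.29 and 8.10 in WT, 7.14, 7.43, 8.23 and 8.76 in TRAF2/Casp8 KO, 6.48, 7.05, 6.51 and 8.24 in RIPK3 triple KO, and 7.72, 7.33, 8.51 and 8.96 in IKKβ triple KO. Tspo2, an erythroid relative of the mitochondrial translocator protein, had an SD of 0.76.

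Cpox, coproporphyrinogen oxidase, which many cells besides erythroid cells use to make haem, followed the animals in this way in only some genotypes. It gave 9.97, 10.29, 10.29 and 10.35 in WT, 9.71, 9.80, 10.06 and 9.91 in TRAF2/Casp8 KO, 9.71, 9.86, 9.55 and 9.68 in RIPK3 triple KO, and 9.99, 9.85, 10.10 and 10.28 in IKKβ triple KO. In IKKβ triple KO, the animals had the same order for Cpox as for the mean over the erythroid genes. In TRAF2/Casp8 KO, replicates 3 and 4 lay above replicates 1 and 2 for both. But replicate 4 of RIPK3 triple KO, high for 31 genes, lay within the range of the other 3 animals of its genotype for Cpox, and WT replicate 2 did not stand out. All 4 RIPK3 triple KO animals lay below all 4 WT animals. The means were 10.22 ± 0.17, 9.87 ± 0.15, 9.70 ± 0.13 and 10.05 ± 0.18, and the pooled SD of 0.16 was below the median gene's. Uros, an earlier enzyme of the same pathway, and Fech, which inserts the iron, had SDs of 0.24 and 0.21. Uros and Tmod1 were the other genes for which RIPK3 triple KO replicate 4 was not the highest of its genotype.

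**Figure D3:**
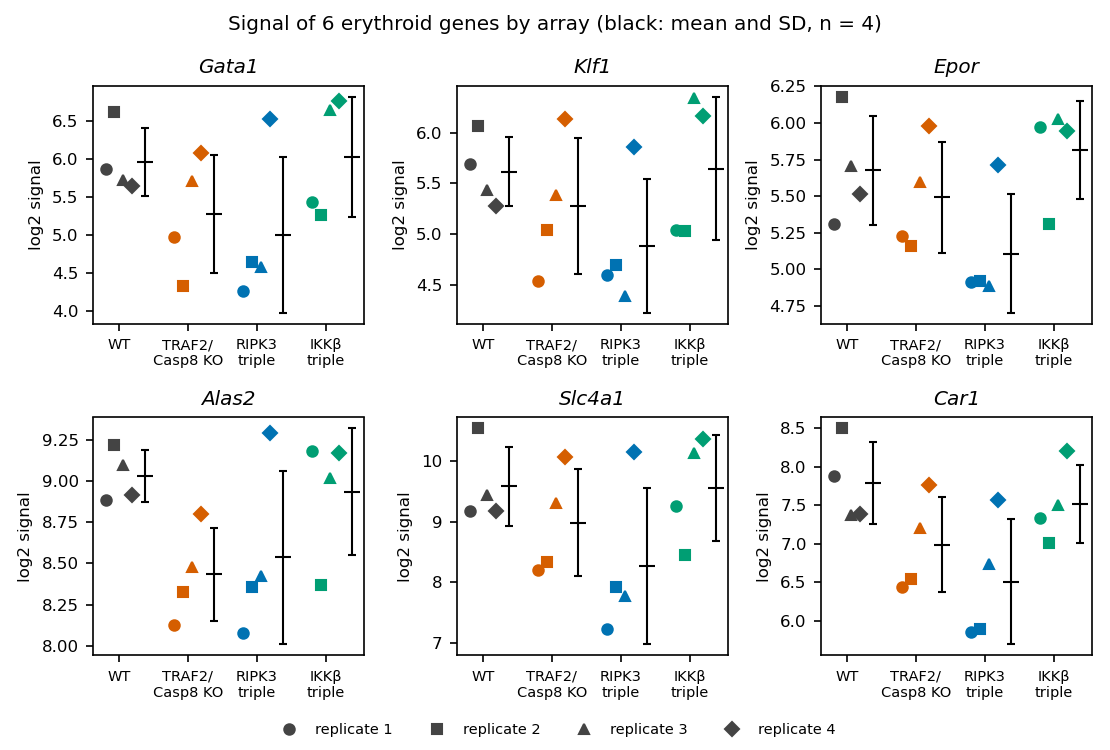
Each panel plots the log2 signal of 1 gene for the 16 arrays by genotype, with replicates 1 to 4 by symbol and the mean and SD (n = 4) in black; axes differ between panels. In RIPK3 triple KO, replicate 4 lies above replicates 1 to 3 in all 6 panels, and IKKβ triple KO and WT overlap in each. The SD is larger in IKKβ triple KO than in WT for Gata1, Klf1, Alas2 and Slc4a1, and slightly smaller for Epor and Car1.

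Of the groups by role, the 7 membrane genes had the largest median SD, 0.92, and the 6 skeleton genes had 0.72. Slc4a1, the chloride and bicarbonate exchanger that anchors the skeleton, gave 9.18, 10.54, 9.44 and 9.17 in WT, 8.20, 8.34, 9.31 and 10.08 in TRAF2/Casp8 KO, 7.23, 7.92, 7.77 and 10.15 in RIPK3 triple KO, and 9.27, 8.45, 10.13 and 10.37 in IKKβ triple KO. The range over 4 animals of RIPK3 triple KO was wider than the distance between any genotype means. These means were 9.58 ± 0.65, 8.98 ± 0.88, 8.27 ± 1.29 and 9.56 ± 0.88 (SD, n = 4). Kel, the Kell blood group protease, covered the widest range, from 3.32 in RIPK3 triple KO replicate 1 to 7.31 in IKKβ triple KO replicate 4. Rhag, the Rh-associated ammonium channel, ran from 4.19 to 7.64 between the same animals.

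Ank1 (ankyrin), Sptb (spectrin beta chain), Epb42, Dmtn (dematin) and Add2 (adducin beta chain) had SDs of 0.95, 0.72, 0.95, 0.72 and 0.63, and Rhd and Ermap, both blood group proteins, had 0.92 and 0.89. Icam4, an adhesion molecule and blood group antigen, had 0.44. At the other end, Tmod1, which caps actin filaments, had 0.22, and Aqp1, a water channel that vessel and bile duct cells also make, had 0.15. Aqp1 stayed between 8.93 and 9.44 and Tmod1 between 3.75 and 4.47 on all 16 arrays. Their genotype means differed from WT by at most 0.06 in any genotype.

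Among the enzymes of the cytosol, Car1, a carbonic anhydrase, gave 7.88, 8.50, 7.37 and 7.39 in WT, 6.44, 6.55, 7.20 and 7.76 in TRAF2/Casp8 KO, 5.85, 5.89, 6.74 and 7.57 in RIPK3 triple KO, and 7.33, 7.01, 7.51 and 8.20 in IKKβ triple KO. The lowest WT animal, at 7.37, lay above 3 of the 4 animals in each of TRAF2/Casp8 KO and RIPK3 triple KO. The means were 7.78 ± 0.53, 6.99 ± 0.61, 6.51 ± 0.81 and 7.51 ± 0.50. Car2, a second carbonic anhydrase found in many tissues, and Bpgm, which makes the bisphosphoglycerate that lowers the oxygen affinity of haemoglobin, had SDs of 0.36 and 0.35. The 5 other genes were Hemgn (a nuclear protein of erythroid cells), Trim10 and Trim58 (ring finger proteins of late erythroblasts), Cldn13 and the tetraspanin Tspan33, with SDs of 0.89, 0.90, 0.54, 0.81 and 0.45.

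In the comparison of TRAF2/Casp8 KO with WT 0 of the 34 erythroid genes passed an adjusted p of 0.05 in limma. The background was 3.31% of all genes. The mean was lower for 32 of the 34, and the median difference was -0.39 on the log2 scale, against -0.01 for all genes. Lower means made up 52.7% of all genes. Without 1 animal this median ran from -0.68 (without TRAF2/Casp8 KO replicate 4) to -0.19 (without WT replicate 2), with -0.22 and -0.20 without TRAF2/Casp8 KO replicates 1 and 2. At an unadjusted p under 0.05 there were 3 of the 34 genes, a smaller share than the 16.4% of all genes, and 1 to 4 when arrays were left out (1 without WT replicate 2 or TRAF2/Casp8 KO replicate 1). The 3 were Cpox (-0.35 ± 0.11 SE, adjusted p = 0.147), Alas2 (-0.59 ± 0.24, 95% interval -1.10 to -0.09, 1.51-fold lower, adjusted p = 0.259) and Zfpm1 (-0.34 ± 0.15, adjusted p = 0.326). With array weights in the limma fit, Cpox had an adjusted p of 0.0383. Alas2 was the 1 gene whose groups did not overlap, against 11.6% of all genes.

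Between RIPK3 triple KO and WT, 1 of the 34 genes passed, Cpox, and the background was 3.11% of all genes. Cpox was lower by 0.52 ± 0.11 (SE, 95% interval -0.77 to -0.28), which is 1.44-fold, with a limma adjusted p of 0.0256. It was lower in 4 of 4 animals than in any WT animal, and it was the 1 gene of the 34 whose groups did not overlap, against 9.08% of all genes. The call was lost with only both groups in the fit (adjusted p = 0.0804). It was also lost without WT replicates 2, 3 or 4 (0.0775, 0.0800 and 0.0864), without RIPK3 triple KO replicates 1 or 3 (0.0575 and 0.0853), and narrowly without replicate 4 (0.0501).

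In this comparison, 32 of the 34 genes had a lower mean and the median was -0.71, against -0.01 for all genes, of which 52.1% were lower. The 2 exceptions were Aqp1 (0.06) and Tmod1 (0.00). At an unadjusted p under 0.05 there were 8 of the 34 genes, against 15.6% of all genes. Leaving out WT replicate 2 or 3, or RIPK3 triple KO replicate 1 or 3, left 3 such genes, and leaving out RIPK3 triple KO replicate 2 left 4. Car1 was at -1.27 ± 0.40 (SE, 95% interval -2.13 to -0.41, adjusted p = 0.132), and Slc25a37 at -1.28 ± 0.45 (-2.25 to -0.32, adjusted p = 0.188). Wide intervals went with the large spread: Kel was at -1.49 (-2.93 to -0.05) and Slc4a1 at -1.32 (-2.62 to -0.02), so that a 2.81-fold lower mean of Kel did not pass. Gata1 was at -0.96 (-2.03 to 0.11), Klf1 at -0.73 (-1.57 to 0.11), Epor at -0.57 (-1.09 to -0.05) and Alas2 at -0.49 (-1.0 to 0.01). Without RIPK3 triple KO replicate 4 the median was -1.08, 27 genes had an unadjusted p under 0.05, and the 1 gene that passed was Car1 (adjusted p = 0.0415), with 2.86% of all genes passing.

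Between IKKβ triple KO and WT, 0 of the 34 genes passed and the background was 0.0372% of all genes. The groups of all 34 overlapped, against 3.92% of all genes whose groups did not. A higher mean was found for 24 genes, against 46.2% of all genes, and a lower one for 10. The median was 0.03, against -0.01 for all genes. The sign of this median changed with the animals, from -0.20 without IKKβ triple KO replicate 4 and -0.12 without replicate 3 to 0.32 without replicate 2. It was also below 0 without WT replicates 1, 3 or 4 (-0.03, -0.03 and -0.05), and it was 0.29 without WT replicate 2 and 0.16 without IKKβ triple KO replicate 1. None of the 34 had an unadjusted p under 0.05, against 6.45% of all genes, and 1 had one without WT replicate 1. The genes of smallest p were Cpox (-0.17, adjusted p = 0.874), Fech (-0.20 ± 0.14 SE, adjusted p = 0.880) and Tal1 (0.24 ± 0.24, adjusted p = 0.920).

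**Figure D4:**
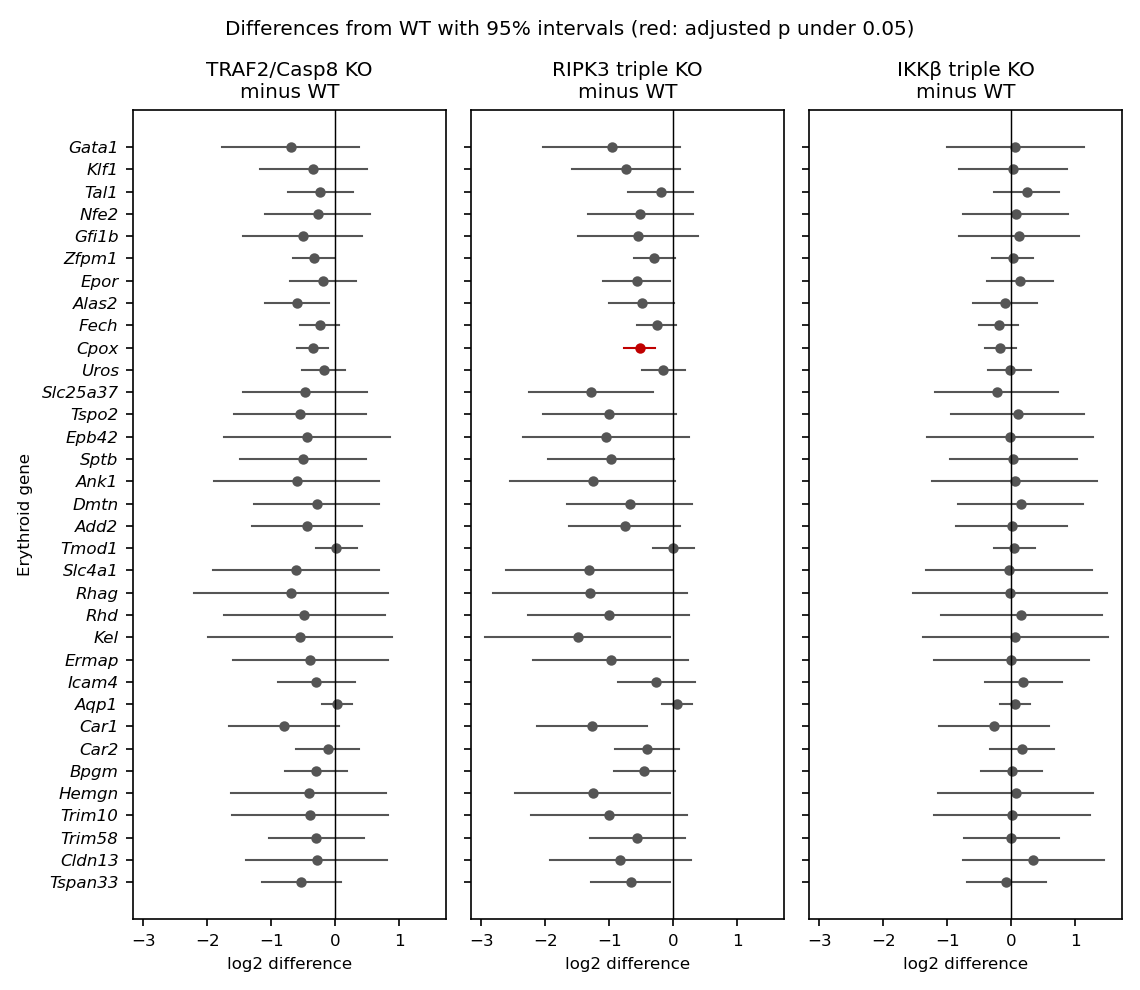
Points are the log2 difference from WT for each of the 34 erythroid genes with its 95% interval from limma, in 1 panel per genotype; red marks an adjusted p under 0.05. Cpox in RIPK3 triple KO (-0.52) is the 1 red point, and the points of that panel reach -1.49 (Kel) while those of IKKβ triple KO lie between -0.27 and 0.35.

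These 3 comparisons share the WT arrays. The other 3 were made between the knockout genotypes and share arrays with them in turn. Between RIPK3 triple KO and TRAF2/Casp8 KO, where the array names of both groups hold the number 7, 0 of 34 genes passed (background 0.329%), 0 had an unadjusted p under 0.05 (11.1% of all genes) and 0 had groups that did not overlap (background 6.87%). The mean was lower for 28 genes, against 50.4% of all genes, and the median was -0.35, against -0.00 for all genes. Without RIPK3 triple KO replicate 4 the median was -0.69 and 9 genes had an unadjusted p under 0.05. Leaving out replicate 1 of TRAF2/Casp8 KO gave 1 such gene. Without RIPK3 triple KO replicates 1 and 2 the median was -0.22 and -0.23, and without TRAF2/Casp8 KO replicate 4 it was -0.11. Slc25a37 had the smallest p (-0.82, 95% interval -1.78 to 0.15, adjusted p = 0.575), before Epor (-0.38, adjusted p = 0.625) and Cpox (-0.17 ± 0.11 SE, adjusted p = 0.638).

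Between IKKβ triple KO and TRAF2/Casp8 KO, the mean was higher in IKKβ triple KO for all 34 genes, but 0 passed in limma (background 1.02%). At an unadjusted p under 0.05 there was 1, against 10.7% of all genes, with 5 without TRAF2/Casp8 KO replicate 4, 4 without IKKβ triple KO replicate 2, and 0 after the removal of TRAF2/Casp8 KO replicate 1 or 3 or IKKβ triple KO replicate 3 or 4. The median was 0.44, against -0.00 for all genes, of which 49.9% were higher. It ran from 0.23 without IKKβ triple KO replicate 4 to 0.70 without TRAF2/Casp8 KO replicate 4, with 0.27 and 0.69 without IKKβ triple KO replicates 3 and 2, and 0.29 without either of TRAF2/Casp8 KO replicates 1 and 2. Zfpm1 was at 0.36 ± 0.15 (SE, 95% interval 0.04 to 0.67, adjusted p = 0.447), and its groups did not overlap, as in 7.48% of all genes. Alas2 was at 0.50 ± 0.24 (adjusted p = 0.554) and Tal1 at 0.47 ± 0.24 (adjusted p = 0.595).

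Between IKKβ triple KO and RIPK3 triple KO the mean was higher in IKKβ triple KO for 33 of the 34 genes. The median was 0.76, against -0.01 for all genes, of which 48% were higher. None of the 34 passed in limma (background 2.00%), 0 had groups that did not overlap (background 9.01%) and 11 had an unadjusted p under 0.05, as did 16.7% of all genes. This last count was 2 without RIPK3 triple KO replicate 1 or 2 or IKKβ triple KO replicate 4, and 3 without replicate 3 of either genotype. It was 28 without RIPK3 triple KO replicate 4 and 26 without IKKβ triple KO replicate 2. Cpox was at 0.35 ± 0.11 (SE, adjusted p = 0.147), Epor at 0.71 ± 0.24 (adjusted p = 0.178) and Car1 at 1.00 ± 0.40 (adjusted p = 0.246). Kel was at 1.56 ± 0.68 (adjusted p = 0.288). Without RIPK3 triple KO replicate 4 the median was 1.10.

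A further list of 29 measured genes that erythroid cells use together with other cells gave more calls than the 34. The mean over this list ran from 7.54 to 8.24 over the 16 arrays, a narrower range than the 5.62 to 7.51 of the 34 genes. Against WT, 1 rose and 4 fell in TRAF2/Casp8 KO, 1 rose and 5 fell in RIPK3 triple KO, and 0 passed in IKKβ triple KO, where 1 had an unadjusted p under 0.05. Of all genes, 3.31%, 3.11% and 0.0372% passed. The medians were -0.15, -0.28 and -0.03. Abcb6, a transporter of porphyrins, fell by 0.55 ± 0.07 (SE, adjusted p = 0.000427) in TRAF2/Casp8 KO and by 0.47 ± 0.07 (adjusted p = 0.00175) in RIPK3 triple KO. Alad, the second enzyme of haem synthesis and one of high level in hepatocytes too, fell by 1.16 ± 0.23 in RIPK3 triple KO (adjusted p = 0.0143). Its signals there were 9.10, 9.14, 9.42 and 8.96, against 9.40, 10.40, 10.70 and 10.76 in WT. WT replicate 1 was low for Alad, as it was the lowest WT animal for Cpox, and overlapped with RIPK3 triple KO.

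Alad was also higher in IKKβ triple KO than in RIPK3 triple KO, by 1.44 ± 0.23 (SE, adjusted p = 0.00586), and all 4 animals of the first lay above all 4 of the second. Xk, the partner of the Kell protein in the membrane, fell by 0.88 ± 0.18 in RIPK3 triple KO against WT (adjusted p = 0.0176). The gene that rose was Cd47, a surface protein of many cells that restrains uptake by macrophages. It rose by 0.53 ± 0.09 in TRAF2/Casp8 KO (adjusted p = 0.00422) and by 0.46 ± 0.09 in RIPK3 triple KO (adjusted p = 0.0143). In IKKβ triple KO, Cd47 was lower by 0.47 than in TRAF2/Casp8 KO and by 0.39 than in RIPK3 triple KO (log2, adjusted p = 0.0235 and 0.0394). Pim1, a kinase that cytokine receptors induce, and Blvrb, a biliverdin reductase, fell against WT in both of these knockouts, and Tfr2, a transferrin receptor, fell in TRAF2/Casp8 KO. Between RIPK3 triple KO and TRAF2/Casp8 KO, 0 of the 29 passed.

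Of 17 measured genes that regulate iron and erythropoietin, 1 fell in TRAF2/Casp8 KO against WT: Hjv, the hemojuvelin co-receptor that drives hepcidin, by 0.51 ± 0.11 (SE, adjusted p = 0.0234). Against WT, 0 passed in both triple knockouts. Hamp, the gene of hepcidin, gave 9.26, 8.29, 9.06 and 9.12 in WT and 10.42, 11.66, 10.49 and 10.25 in IKKβ triple KO. All 4 IKKβ triple KO animals lay above all 4 WT animals, and the difference was 1.77 ± 0.44 (adjusted p = 0.399). The difference of Hamp was smaller against both other knockouts, and it passed in neither comparison. There, no gene of this list was higher in IKKβ triple KO by more than 0.81 (against TRAF2/Casp8 KO) or 1.22 (against RIPK3 triple KO). Id1, a target of the same bone morphogenetic protein signal as Hamp, was higher in IKKβ triple KO than in RIPK3 triple KO by 0.95 ± 0.20 (adjusted p = 0.0276). Epo, the hormone's own gene, had signals of 2.18 to 4.45 and passed in none of the 6 comparisons. The 3 measured embryonic globins, Hba-x, Hbb-bh1 and Hbb-y, had signals between 2.30 and 3.68 on all arrays, and 0 of them passed in any comparison.

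Markers of other blood cells moved with some of the same animals. The mean of 10 measured genes of megakaryocytes and platelets (14 listed) stood at 7.51 for RIPK3 triple KO replicate 4 and at 6.06 to 6.26 for the other 3 animals of that genotype. It was 6.64 to 7.08 in WT, 6.09 to 6.66 in TRAF2/Casp8 KO and 6.61 to 7.25 in IKKβ triple KO. The mean of 18 genes of neutrophils and their precursors was 6.12 to 7.66 in RIPK3 triple KO and 7.50 to 9.11 in WT, with WT replicate 1 the highest. In TRAF2/Casp8 KO and IKKβ triple KO it was 7.24 to 8.44 and 7.42 to 8.47. Its median difference was -1.24 in RIPK3 triple KO against WT, where Mmp8, a collagenase of neutrophil granules, was lower by 1.57 (log2, adjusted p = 0.0490). All 18 means were lower there, and 15 genes had an unadjusted p under 0.05 in limma, against 15.6% of all genes. Such a p was found for 13 of the 18 in IKKβ triple KO against RIPK3 triple KO (16.7% of all genes). It was found for 9 in RIPK3 triple KO against TRAF2/Casp8 KO (11.1% of all genes) and for none in the other comparisons. The mean of 14 macrophage genes was 9.33 in WT replicate 1 and 9.22 in RIPK3 triple KO replicate 4, and 8.52 to 8.88 on the other 14 arrays. The part of these cells in the erythroid differences was not tested.

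Of the lists of 10 stem and progenitor genes, 10 megakaryocyte genes, 14 macrophage genes, 8 genes of B cell precursors and 20 cell cycle genes, 0 genes passed in any comparison. At an unadjusted p under 0.05 in limma, the first 4 of these lists had at most 2 genes in a comparison. Of the 20 cell cycle genes, 17 had such a p in IKKβ triple KO against RIPK3 triple KO, where all 20 means were higher and 16.7% of all genes had such a p. All 20 were lower in RIPK3 triple KO than in TRAF2/Casp8 KO, 7 of them with such a p (11.1% of all genes) and 10 with groups that did not overlap (6.87% of all genes). Among the 14 hepatocyte genes, Fga, a fibrinogen chain, fell by 0.51 ± 0.10 (SE) in RIPK3 triple KO against WT (adjusted p = 0.0113). The cell cycle genes shared the order of the erythroid genes in some animals and not in others. TRAF2/Casp8 KO replicate 4 (cell cycle mean 8.33) and IKKβ triple KO replicates 3 and 4 (8.51 and 8.46) were high in their genotypes for both. RIPK3 triple KO replicate 4, high for erythroid genes, had a cell cycle mean of 7.55, within the 7.45 to 7.70 of its genotype. IKKβ triple KO replicate 2, the lowest of its genotype for 32 erythroid genes, had 8.32, while replicate 1 had 7.46.

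**Figure D5:**
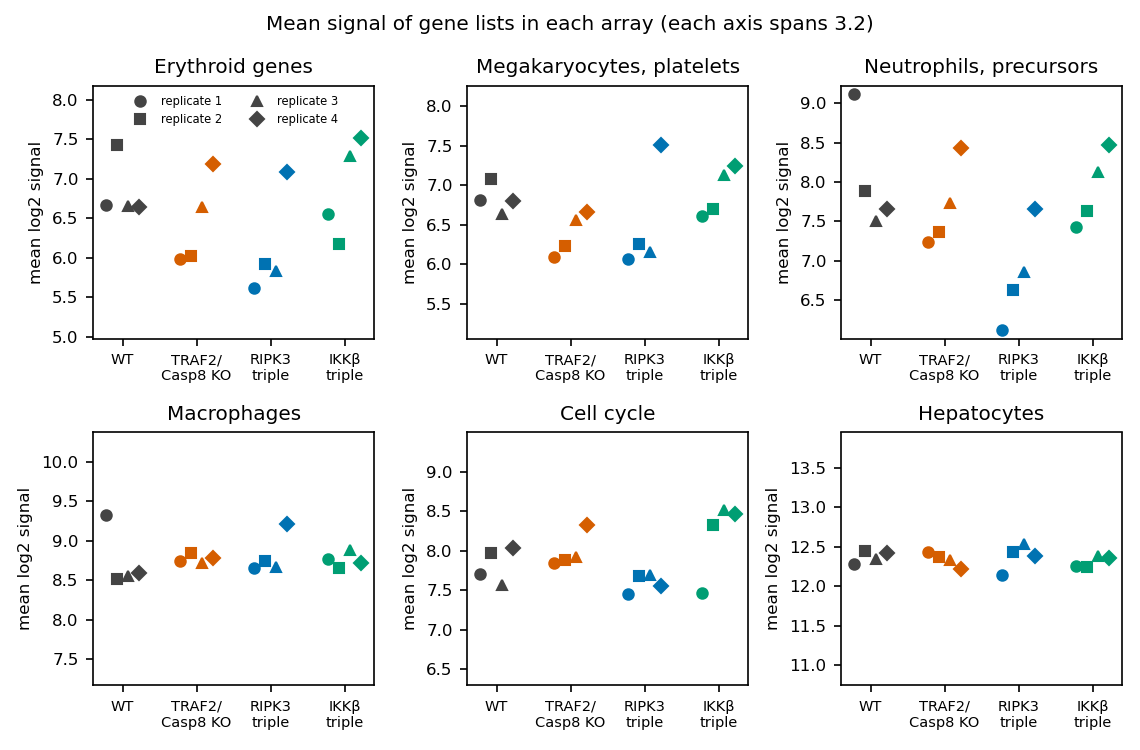
Each panel plots the mean log2 signal of a gene list on each of the 16 arrays, by genotype and with replicates 1 to 4 by symbol; every vertical axis spans the same width. RIPK3 triple KO replicate 4 is high for erythroid (7.09), megakaryocyte (7.51) and macrophage (9.22) genes, and the hepatocyte means stay between 12.14 and 12.53.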

How the data were processed

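The deposited table holds log2 values, with 1 column for each array, that the authors made with RMA, per the submitters' processing notes. Its version, the software and how probe sets were defined were each not given in the sources used here. That the logarithm is to base 2 was judged from the range of the values, 0.89 to 13.65. Per the labels' protocols, each labelling started from 100 ng of RNA, whose integrity number exceeded 8.0. All 16 columns were used, and 0 were left unused. Each array is another animal, and 4 arrays a group limit the precision.

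All 35556 probe sets, unfiltered, entered 1 model of the 4 genotypes in limma 3.58.1 under R 4.3.3 (lmFit and eBayes, two-sided). The Benjamini-Hochberg adjustment ran over every probe set, with 0.05 as the threshold. Every adjusted p is from this limma model unless an alternative is named. One symbol was given for 21218 probe sets, several for 1881 and none for 12457. The procedure was tested on simulated data. The pooled SD within a genotype is the residual SD of this model before moderation. The figures come from matplotlib 3.10.9 (Python 3.11.15). Promoter sequences are from RefSeq; that of Slc4a1 was not used here.

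The 34 genes and the other lists were chosen with earlier results of these data known, so no test over a list was made. Gata1, Klf1, Epor, Alas2, Slc4a1 and Car1 are given by array whatever their result. In each comparison, the genes past the threshold, or else the 3 of smallest p, are given as values. Zfpm1, Slc25a37, Kel, Rhag, Aqp1, Tmod1 and Hamp were singled out after their values were seen. As alternatives, eBayes was run with an intensity trend and robustly, on only the groups compared, without the dimmest probe sets, after another quantile normalisation or median centring, with array weights, with the replicate number or (as a random term) the letter in the array name, taken for a plate row, as a block, on the mean of a gene's probe sets, and without each array.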

Additional observations from a re-analysis of the deposited data

Results flagged for a closer look

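In each genotype, the distance of the highest or lowest of the 4 animals from its nearest neighbour was divided by the range, and shares above Dixon's 95% critical value for 4 values are given here. Chance alone gives such a share in about 1 in 20 groups. It was reached 13 times among 136 combinations of 34 genes and 4 genotypes, and the genes move together, so these are not independent.

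In RIPK3 triple KO, replicate 4 was the animal that stood apart for 6 genes. Its log2 signal was 6.52 for Gata1, against 4.27 to 4.65 in the other 3 animals (share 0.831), and 6.54 for Gfi1b, against 5.19 to 5.40 (0.846). Epor was at 5.71 against 4.88 to 4.92 (0.960), and Dmtn at 7.18 against 5.39 to 5.45 (0.967). Ermap was at 7.88 against 5.86 to 6.19 (0.837), and Hemgn at 6.78 against 4.91 to 5.11 (0.893).

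In WT, replicate 2 stood apart upward for 4 genes: Rhag at 7.56 against 6.10 to 6.27 (share 0.883), Rhd at 6.62 against 5.24 to 5.47 (0.834), Kel at 7.21 against 5.85 to 6.05 (0.856) and Hemgn at 7.62 against 6.27 to 6.46 (0.856). WT replicate 1 stood apart downward for Cpox, at 9.97 against 10.29 to 10.35 (0.839). In IKKβ triple KO, replicate 2 was low for Epor, at 5.31 against 5.94 to 6.03 (0.886). In TRAF2/Casp8 KO, replicate 3 was low for Aqp1, at 8.93 against 9.23 to 9.26 (0.889).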

How the results depend on the processing

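The count of erythroid genes past the threshold in RIPK3 triple KO against WT, 1, was 0 with only both groups in the fit, and 0 to 1 when arrays were left out in turn. In TRAF2/Casp8 KO against WT the count of 0 became 1 (Cpox) with array weights, where WT replicate 1 had the lowest weight, 0.461. The cause of either change was not tested. In the other 4 comparisons the count was 0 under all alternatives and with any array left out. The adjusted p of Cpox in RIPK3 triple KO against WT ran from 0.0099 to 0.0864 over its alternatives. The median differences moved by less than 0.57, the SD between animals of the mean over the 34 genes, and kept their sign under all 9 alternatives besides leaving out arrays. Of these, only quantile normalisation, median centring and array weights could move a median. The others leave the group means of these genes unchanged, so their medians say nothing about robustness. The median of IKKβ triple KO against WT was 0.17 with array weights. Over all probe sets, the deviations of arrays with the same replicate number correlated weakly. Of 24 such pairs, 4 were above 0.1 (range -0.10 to 0.16). Of these 4, 3 were pairs of TRAF2/Casp8 KO with IKKβ triple KO, whose remaining pair, replicate 2, was at -0.02. With the replicate block, 1 gene passed in RIPK3 triple KO against WT (Cpox, adjusted p = 0.0355) and 0 in each other comparison. In the first, 724 probe sets passed against 845 without the block. The erythroid genes at an unadjusted p under 0.05 in limma rose there from 8 to 17 with the block. In IKKβ triple KO against RIPK3 triple KO they rose from 11 to 19. They rose from 3 to 4 in TRAF2/Casp8 KO against WT, and stayed at 0 in IKKβ triple KO against WT. Against TRAF2/Casp8 KO they rose from 0 to 1 in RIPK3 triple KO and from 1 to 3 in IKKβ triple KO. The letters in the array names, taken for plate rows, as a random block had a consensus correlation of 0.0133. Signals near background limit what can be said of Epo and of the embryonic globins. Of the 34 erythroid genes, 12 had a mean signal below that of the median gene. The lowest Kel signal lay within the range of the embryonic globins, and the lowest Tmod1 signal just above it.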

Other observations

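Among the 100 genes that differed most between animals of 1 genotype, 70 belonged to none of the lists used here. The first of them were Dmbt1, a mucin-like scavenger protein, with a pooled SD of 1.99 on the log2 scale, and Orm2 and Orm1, acute phase glycoproteins of hepatocytes, with 1.94 and 1.74. The neutrophil list had 9 genes among these 100, including Mpo (0.90) and Ctsg (0.87), both granule proteins of precursors. The other erythroid list had 2, one of them Ctse, an aspartic protease of erythroid cells (0.91).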
